A study of Mus musculus with 2 samples.

Results

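Dual oxidases and NADPH oxidases are membrane enzymes that hand electrons from NADPH to oxygen, and 8 of their genes were followed in mouse prostaspheres with and without Sox9. The genes were Duox1, Duox2, their maturation factors Duoxa1 and Duoxa2, the oxidases Nox1 and Nox4, the organizer Noxo1 and the shared subunit Cyba. Members were the noncontrol spots of both arrays that carry one of these gene names, which gave 10 probes on 19 spots of each array, out of 41174 probes for 27827 gene names. The genes were picked with their log2 ratios on these 2 arrays known, so those ratios are given as a description, with no test.

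Prostaspheres are spheres that prostate epithelial cells form in Matrigel. ER-Sox9flox/flox cells (ERCre+/+Sox9flox/flox in the labels) carry a floxed Sox9 gene and a Cre recombinase that tamoxifen (TAM) switches on, in a C57/Bl6J background. On the first array, the genotype comparison, wild-type C57/Bl6J cells given TAM (Cy5) were hybridized against ER-Sox9flox/flox cells given TAM (Cy3). On the second, the treatment comparison, ER-Sox9flox/flox cells given vehicle (Cy5) were hybridized against ER-Sox9flox/flox cells given TAM (Cy3). All 4 RNAs came from spheres kept for 6 days in Matrigel with dihydrotestosterone and then for 6 days with 5 µM TAM or vehicle. By the labels the cells were epithelium of the urogenital sinus (UGS) at 16 dpc, whereas the methods describe prostasphere culture from adult prostate. The labels give "Sox9 null" as the genotype of the vehicle-treated cells too, so that comparison is told apart by treatment. How many mice each RNA stands for is not given in the sources used here, and the arrays are the only replicates (n = 2). Every log2 ratio below is Sox9-expressing (Cy5) over Sox9-deleted (Cy3) RNA. Both arrays had the same dye orientation, so a dye bias of a probe and a response to Sox9 cannot be told apart, nor can genotype from line on the first array or Sox9 loss from TAM on the second.

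DUOX1 and DUOX2 release hydrogen peroxide at epithelial surfaces, and each needs its own maturation factor, DUOXA1 or DUOXA2, to leave the endoplasmic reticulum. NOX1 makes superoxide in epithelia together with the subunit CYBA, the organizer NOXO1, the activator NOXA1 and a Rac GTPase. NOX4 needs CYBA, is active without an organizer, and releases mostly hydrogen peroxide in fibroblasts, smooth muscle and some epithelia.

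The sequences that carry the results are the probes that read Duoxa1, Duox1 and Noxo1 and the promoters of these genes. The array holds 60-base probes, with coordinates of the mm9 build from the file headers. Whether a probe lies in coding sequence or in an exon end was not determined here. The first 30 bases of each probe are shown, 5′ to 3′, all in lower case. Duoxa1 probe 1 (A_52_P534361) is at chr2:122129336-122129395 on the minus strand, Duoxa1 probe 2 (A_51_P273096) at chr2:122129785-122129844 on the minus strand, the Duox1 probe at chr2:122173491-122173550 on the plus strand, and the Noxo1 probe at chr17:24837264-24837323 on the plus strand.
Duoxa1 probe 1: gtgggtttcagttgtatcatgttcagttgt
Duoxa1 probe 2: tgaattccagttactctaaagcagcagccc
Duox1 probe: tgtgttcttcctctcttcaaaatggttggg
Noxo1 probe: actgggacaggaacaagggactcgggttcc

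The 4 dual oxidase genes stand side by side on chromosome 2 as head-to-head pairs, each oxidase beside its maturation factor on the other strand. In the RefSeq promoter table (GRCm38.p6), the start sites of Duoxa1 and Duox1 were 1942 bases apart and those of Duox2 and Duoxa2 were 673 bases apart. Promoters are shown because the Duoxa1 and Duox1 probes both gave ratios above 0 on each array, with the Noxo1 promoter beside them. Each runs from 250 bases before to 50 after the start site, on the gene's strand. Capitals mark AACAAT or ACAAAG, core sequences that SOX proteins are known to bind, searched on both strands.
Duoxa1 promoter, chr2:122313681-122313980, minus strand: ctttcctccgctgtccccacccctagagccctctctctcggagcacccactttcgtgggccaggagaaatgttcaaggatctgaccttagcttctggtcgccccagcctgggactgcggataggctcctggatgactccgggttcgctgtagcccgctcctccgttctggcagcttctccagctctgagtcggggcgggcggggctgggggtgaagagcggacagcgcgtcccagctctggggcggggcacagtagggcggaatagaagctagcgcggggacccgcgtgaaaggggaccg
Duox1 promoter, chr2:122315422-122315721, plus strand: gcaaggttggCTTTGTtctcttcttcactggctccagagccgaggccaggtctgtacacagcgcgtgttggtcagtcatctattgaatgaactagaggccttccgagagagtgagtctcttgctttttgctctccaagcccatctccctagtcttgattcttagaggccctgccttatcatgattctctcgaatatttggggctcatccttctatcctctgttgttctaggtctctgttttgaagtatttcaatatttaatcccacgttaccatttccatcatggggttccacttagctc
Noxo1 promoter, chr17:24695984-24696283, plus strand: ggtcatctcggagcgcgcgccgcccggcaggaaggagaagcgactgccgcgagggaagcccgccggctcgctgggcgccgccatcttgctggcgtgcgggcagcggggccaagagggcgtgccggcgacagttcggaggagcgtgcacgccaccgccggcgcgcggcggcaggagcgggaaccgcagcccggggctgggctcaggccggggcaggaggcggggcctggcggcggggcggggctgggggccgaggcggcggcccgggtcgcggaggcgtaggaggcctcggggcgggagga

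The Duox1 promoter held ACAAAG once, as CTTTGT on the opposite strand, beginning at position -240 from the start site. The windows of Duoxa1 and Noxo1 held neither motif. Over all 8 genes, ACAAAG was found in the promoters of Duox1, Duoxa2 and Nox4, and AACAAT in that of Nox1. ACAAAG was in 18.7%, AACAAT in 10.7% and either motif in 27.0% of 32841 promoters of this length, so a match is common. The Duoxa1 and Duox1 promoters also differed in base composition, with a GC content of 65.7% and 46.7%, and that of Noxo1 reached 80.3%, against a median of 52.7% over all promoters.

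The targeted gene was checked first. The Sox9 probe with the highest signal had a brightness of 1634 in wild-type TAM and 1199 in vehicle-treated RNA, against 253 and 232 in the 2 Sox9-deleted RNAs, a log2 ratio of 2.53 ± 0.23 (SD, n = 2). A second Sox9 probe gave 1.22 ± 0.07 and the third, which lies farthest downstream of the 3, gave -1.11 ± 0.16. Thus 2 of 3 probes followed the labels and 1 went the other way. The part of Sox9 that is deleted is not given in the sources used here, so which probes should fall is not known. Brightness is the normalized intensity of a probe in 1 RNA with an offset of 50 added, and it can be compared between RNAs but not between probes. Negative control spots (n = 138) had a median brightness of 86.2 to 88.8 in the 4 RNAs.

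Of the 8 genes, 5 had a probe well above background, and these were above background in all 4 RNAs. On both arrays Duoxa1, Noxo1 and Duox1 were higher where Sox9 was expressed, whereas Cyba and Nox4, by its brighter probe, were slightly lower on both. The other Nox4 probe was higher on both, at 0.01 and 0.41. Duox2, Duoxa2 and Nox1 were not above background in any RNA. At least 2-fold on both arrays were 2 genes, Duoxa1 and Noxo1, where 0.29% of the 22731 tested probes were at least 2-fold higher and 0.128% at least 2-fold lower. Being higher on both arrays (3 genes) or lower on both (2 genes) was common, at 34.5% and 32.6% of tested probes, and 32.9% had opposite signs. As the genes were chosen by these ratios, nothing is read from the counts.

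**Figure D1:**
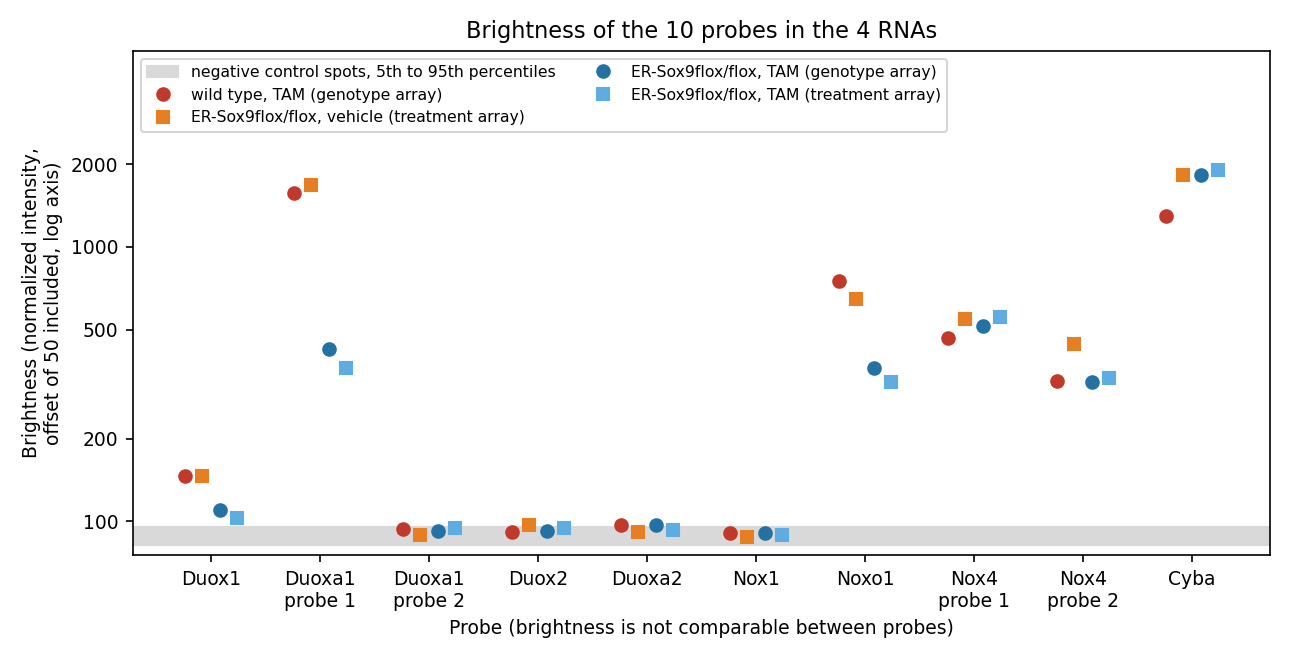
Brightness (log axis, offset of 50 included) of the 10 probes in the 4 RNAs, 1 point per RNA, with the range of negative control spots in grey. The Sox9-expressing RNAs lie above the Sox9-deleted ones for Duox1, Duoxa1 probe 1 and Noxo1, and the probes of Duox2, Duoxa2, Nox1 and Duoxa1 probe 2 lie at the negative controls.

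Duoxa1, the maturation factor of DUOX1, had by its brighter probe the largest difference of the 5 genes tested. Probe 1 had a brightness of 1573 in wild-type TAM, 1687 in vehicle-treated ER-Sox9flox/flox, and 425 and 360 in the Sox9-deleted RNAs of the genotype and treatment comparisons. Both Sox9-expressing RNAs were thus well above both Sox9-deleted RNAs, which themselves stayed above the negative controls. The log2 ratios were 1.89 and 2.23, a mean of 2.06 ± 0.24 or 4.16-fold. Over all tested probes the 2 arrays differed by a median of 0.129 and a 95th percentile of 0.602. Probe 2, 0.449 kb away on the same strand, had 93.4, 88.7, 92.1 and 94.3 in the same order and was not above background in any RNA. Duoxa1 was thus read from 1 of its 2 probes, and the mean over both probes was 1.01 in place of 2.06. That mean is just below the 1.04 of Noxo1. With probe 1 the mean reached 2.36 from the processed signals.

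Duox1, the oxidase that DUOXA1 serves, was measured by 1 probe printed on 10 spots. Its mean brightness was 146.1 in wild-type TAM, 146.4 in vehicle-treated, and 109.4 and 102.3 in the Sox9-deleted RNAs. On the genotype array the Cy5 spots ran from 122.5 to 162.3 with a median of 144.6, and the Cy3 spots from 101.4 to 114.5 with a median of 110.0. On the treatment array, where 8 spots remained after outlier spots were left out, Cy5 ran from 135.2 to 159.5 around a median of 146.7, and Cy3 from 99.4 to 105.1 around 102.3. The spots of the 2 dyes did not overlap on either array, but spots of 1 array share the RNA and are no replicates of the condition. Spots of a probe differ little, with a median spot SD of 0.036 and 0.043 over 167 tested probes with replicate spots. How many of those probes also had no overlap was not counted, so nothing is read from it. The log2 ratios were 0.42 and 0.52, a mean of 0.47 ± 0.07 or 1.38-fold, with a spot SD of 0.071 and 0.068.

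Duox1 was close to background in the Sox9-deleted RNA, where 7 of 10 spots of the genotype array and 8 of 8 of the treatment array were well above it. The size of its difference therefore turned on how background was handled. The mean log2 ratio was 0.77 with an offset of 10, 0.88 in the authors' value table, 1.55 after plain subtraction and 2.12 from the scanner software's processed signals. It was positive in all 11 settings tried, and the offset of 50 gives nearly the lowest value. Changes of the filter and the mean over probes are among these settings and could not move a gene read by 1 probe.

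**Figure D2:**
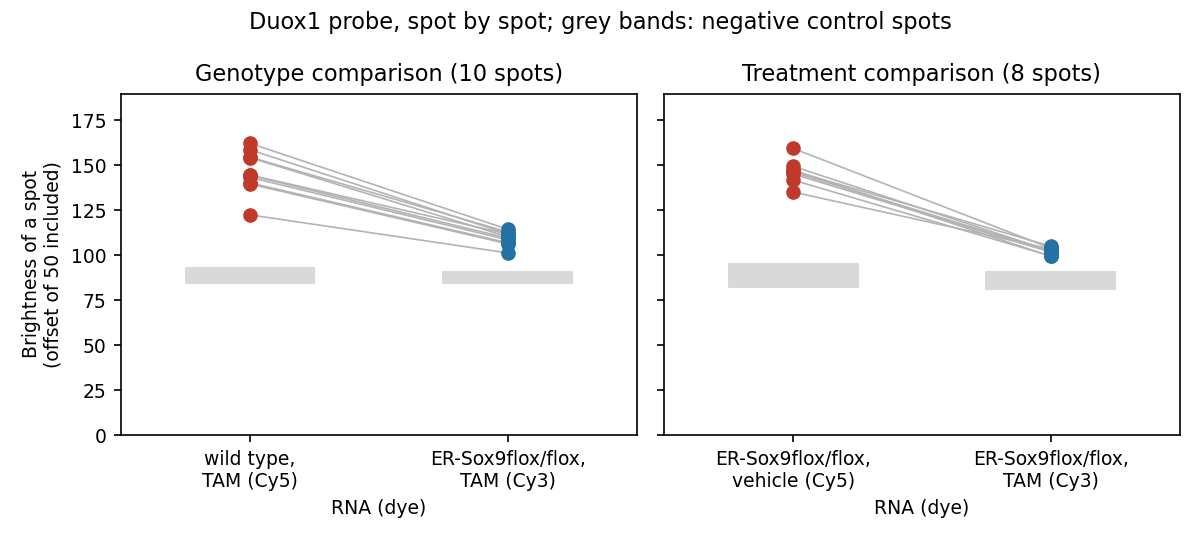
Brightness of each Duox1 spot in Cy5 and Cy3 on the genotype array (10 spots) and the treatment array (8 spots), with lines joining the dyes of a spot and grey bands for the 5th to 95th percentiles of negative control spots. Every Cy5 spot lies above every Cy3 spot of its array, and the Cy3 spots, at 99.4 to 114.5, lie just over the controls. Spots of an array share the RNA and are no replicates of the condition. How many other probes had no overlap was not counted, so nothing is read from the separation of the dyes.

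Noxo1, the organizer that NOX1 needs to be active, was about 2-fold higher in Sox9-expressing RNA. Its brightness was 754 in wild-type TAM and 648 in vehicle-treated RNA, against 362 and 321 in the Sox9-deleted RNAs. The log2 ratios of 1.06 and 1.01 gave a mean of 1.04 ± 0.035 or 2.05-fold. This lies just inside the 2-fold rule, and the value on the treatment array passed below 2-fold when the arrays were scaled to 1 spread. Over 11 settings the mean ranged from 1.04 to 1.29.

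Nox1 itself, the oxidase that NOXO1 serves, was not above background. Its probe had 90.5 and 87.2 in the Sox9-expressing and 90.2 and 88.8 in the Sox9-deleted RNAs. Duox2 had 90.9 and 96.5 against 92.1 and 94.6, and its maturation factor Duoxa2 96.8 and 91.5 against 97.1 and 92.7. These values lay among or just over the negative controls, and no difference could be measured for these 3 genes, each read by 1 probe. Noxa1, the activator in the NOX1 complex, was at 141.2 and 193.5 in the Sox9-expressing RNAs against 149.5 and 142.5. Its log2 ratios were -0.08 and 0.44 (limma, adjusted p = 0.584), with opposite signs on the arrays.

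**Figure D3:**
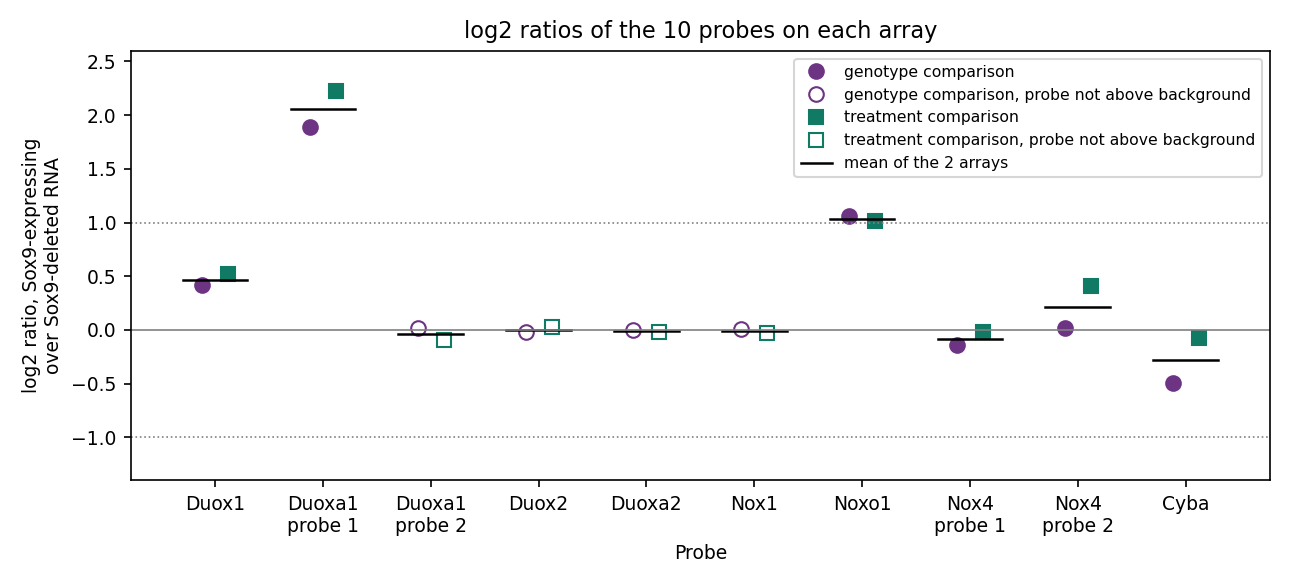
log2 ratio of Sox9-expressing over Sox9-deleted RNA for each probe on the genotype and treatment arrays, with a bar at the mean of the 2 arrays, open symbols for probes not above background and dotted lines at 2-fold. Duoxa1 probe 1 and Noxo1 lie above the upper 2-fold line on both arrays, Duox1 lies between 0 and that line, and Cyba lies below 0.

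Nox4 was read by 2 probes that differed from each other. Probe 1 (A_52_P617638, chr7:94545682-94545741, plus strand) had a brightness of 468 in wild-type TAM and 546 in vehicle-treated RNA, against 516 and 555 in the Sox9-deleted RNAs. The log2 ratios were -0.14 and -0.02, a mean of -0.08 ± 0.09. Probe 2 (A_51_P369311, chr7:94472458-94487478, plus strand) had 326 and 442 against 322 and 334. Its log2 ratios of 0.01 and 0.41 averaged 0.21 ± 0.28, and the vehicle-treated RNA alone stood out. The coordinates of probe 2 span 15021 bases for 60 bases of sequence, so its match is not contiguous in the genome. Taken as the mean of both probes Nox4 was at 0.06. With median centring in place of loess it was at 0.18, level with the median of 0.18 over all tested probes under that setting. As its 2 probes differed in sign, Nox4 had no settled direction.

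Cyba (chr8:124950893-124951161, minus strand), the membrane subunit that NOX1 and NOX4 share, was well above background throughout. Its brightness was 1301 in wild-type TAM, 1824 in vehicle-treated RNA and 1827 and 1914 in the Sox9-deleted RNAs. Only the wild-type RNA was lower, and the vehicle-treated RNA was level with the Sox9-deleted RNAs. The log2 ratios of -0.49 and -0.07 gave a mean of -0.28 ± 0.30, a spread larger than the mean. With median centring the mean was 0.04, above 0 but still below the median of 0.18 over all tested probes under that setting.

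Other cell types were read from marker lists, since in bulk RNA fewer cells of a type and less RNA per cell cannot be told apart. All 6 basal epithelial markers were higher on both arrays, as Duoxa1, Duox1 and Noxo1 were, and the summed brightness of the list was 318342 to 365338 in Sox9-expressing and 115587 to 117177 in Sox9-deleted RNA. Krt5 was at 2.02 ± 0.15, Krt14 at 1.96 ± 0.15 and Trp63, the basal transcription factor p63, at 1.60 ± 0.07. Itga6 had log2 ratios of 0.96 and 0.57, and Itgb4 had 1.15 on the genotype but only 0.06 on the treatment array. Most of the summed brightness came from Krt5, Krt14 and Krt15. Of all tested probes, 34.5% were higher on both arrays. Of 7 tested suprabasal and squamous genes, 4 were higher on both arrays and 3 lower, with Krt10 at 1.96 ± 0.26 and Ivl, the cornified envelope protein involucrin, at -1.72 ± 1.14. The part of these cells in the values of Duoxa1, Duox1 and Noxo1 was not tested.

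Fibroblast and smooth muscle genes had a different pattern on the 2 arrays. All 8 were lower in wild-type than in Sox9-deleted RNA on the genotype array, and 7 of 8 were higher in vehicle-treated than in Sox9-deleted RNA on the treatment array, the exception being Dcn. Their summed brightness was 29150 in wild-type TAM, 80195 in vehicle-treated, and 52470 and 46335 in the Sox9-deleted RNAs. Both Nox4 probes, Noxa1 and Cyba were brighter in vehicle-treated than in wild-type RNA. So was Duoxa1 probe 1, at 1687 against 1573, whereas Noxo1 was not, at 648 against 754. The share of all probes brighter in vehicle-treated RNA was not counted, so nothing is read from these comparisons. Cyba and Nox4 probe 1 were below 0 on both arrays, and Nox4 probe 2 was at 0.01 and 0.41. Opposite signs on the 2 arrays were seen in 7 of the 8 fibroblast and smooth muscle genes. Of 10 phagocyte genes, Ptprc, Itgam, Adgre1 and Spi1 were not above background in any RNA. Of the 6 tested, 5 were lower on both arrays and 1 had opposite signs, with Cd68 at -0.69 and -0.77. The list summed to 2580 in wild-type TAM, 4343 in vehicle-treated and 4065 and 4944 in Sox9-deleted RNA. Most of these sums came from Lyz2, at 1452, 3185, 2708 and 3524 in the same order. Of the endothelial list, Pecam1 and Tek were not above background, whereas Cdh5, Kdr and Emcn were above it in every RNA. Emcn was at 599 in wild-type TAM, 1296 in vehicle-treated, and 776 and 1025 in Sox9-deleted RNA. Cdh5 was lower on both arrays, and Kdr and Emcn had opposite signs. Among luminal genes, Krt8 and Krt18 were well above background in all RNAs, and of 5 tested genes 2 were higher on both arrays and 2 lower, with Krt18 at -0.28 and -1.01 and Cd24a at -0.29 and -0.20. The luminal list summed to 206833 and 181016 in the Sox9-expressing RNAs, against 218361 and 263824 in the Sox9-deleted RNAs. The part of stromal cells and phagocytes in the values of Nox4 and Cyba was not tested.

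Other genes of the pathway were taken from 3 lists of 43 genes, of which 42 were on the array and 34 were tested. limma called 0 of them at an adjusted p under 0.05, as it called 0.0088% of all tested probes. At an unadjusted p under 0.05, limma passed 6 of the 34, against 17.5% of all tested probes, and the methods' paired t-test passed 4, against 8.52% of all tested probes, with none after Benjamini-Hochberg adjustment. At least 2-fold on both arrays was 1 gene, Gpx2, where 0.418% of tested probes passed in either direction. The median log2 ratio of the 34 genes was -0.03, beside 0.01 over all tested probes, and 8 genes were higher on both arrays, 10 lower and 16 of opposite sign.

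Gpx2, an epithelial glutathione peroxidase that removes hydrogen peroxide, was higher in both Sox9-expressing RNAs. Its brightness was 6670 in wild-type TAM and 8305 in vehicle-treated RNA, against 3172 and 3337 in the Sox9-deleted RNAs. The log2 ratios of 1.07 and 1.32 averaged 1.19 ± 0.17, with an adjusted p of 0.0946 by limma. Over the other 9 settings that limma could be run on for single probes, this p ranged from 2.29e-06 with median centring to 0.171 with the processed signals.

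Most of the other 19 genes that remove superoxide or peroxide differed little. Txnrd1, the cytosolic thioredoxin reductase, had log2 ratios of -0.45 and -0.62 (limma, adjusted p = 0.143) and Prdx5, a peroxiredoxin, -0.62 and -0.23 (adjusted p = 0.237). Gpx3, a secreted glutathione peroxidase, was at -1.30 on the genotype and 0.71 on the treatment array (limma, adjusted p = 0.797), with a brightness of 731 in wild-type TAM, 2808 in vehicle-treated, and 1797 and 1712 in Sox9-deleted RNA. The same signs were seen in 7 of the 8 fibroblast and smooth muscle genes. Opposite signs in either order were seen in 32.9% of all tested probes, and the share in this order was not counted. The part of stromal cells in the values of Gpx3 was not tested. Prdx4 had a mean of 0.19 ± 0.49 and Sod1, the cytosolic superoxide dismutase, 0.17 ± 0.09. Of the 20 genes, 4 were higher on both arrays, 6 lower on both and 10 of opposite sign.

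**Figure D4:**
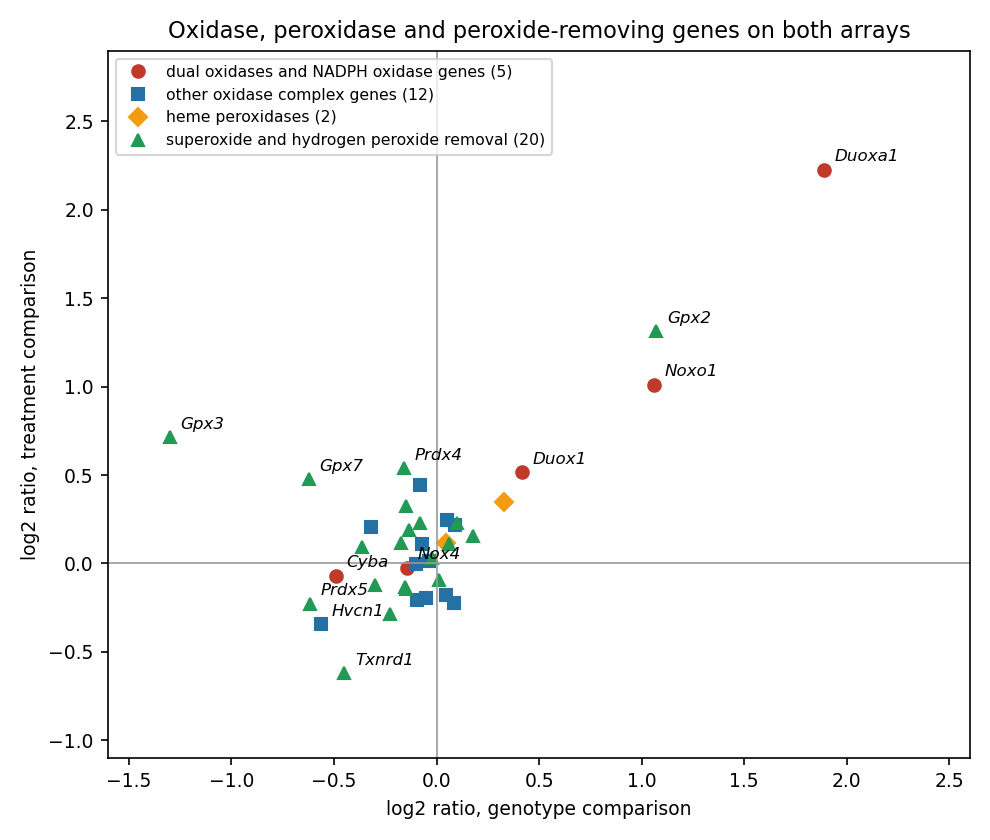
log2 ratio on the genotype array (x axis) and on the treatment array (y axis) of the tested genes, 1 point per gene, for the followed genes (5 points), other oxidase complex genes (12), heme peroxidases (2) and genes that remove superoxide and hydrogen peroxide (20). Duoxa1, Gpx2, Noxo1 and Duox1 lie at the upper right, and Gpx3 lies at the upper left, at -1.30 and 0.71.

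Of 17 other genes of oxidase complexes, 12 were tested and their mean log2 ratios lay between -0.45 and 0.18. Cybb, the phagocyte oxidase, and Nox3, an inner ear oxidase, were not above background in any RNA. Ncf1 and Rac2, partners of Cybb, were above background in only 1 RNA each. Ncf4, of the same list, was above background in all RNAs but wild-type TAM. Its brightness there was 102.3 in vehicle-treated and 104.2 and 102.5 in Sox9-deleted RNA. The highest means after Noxa1 were those of Txndc11, a thioredoxin-like partner of dual oxidases, at 0.15 ± 0.09 and of Rac1 at 0.15 ± 0.14. The lowest were those of Hvcn1, a proton channel, at -0.45 ± 0.15 (limma, adjusted p = 0.176), Sh3pxd2b, an organizer-like scaffold, at -0.15 ± 0.08 and Nrros, a regulator of Cybb, at -0.12 ± 0.10. P4hb, a chaperone of the endoplasmic reticulum that binds NADPH oxidases, was at -0.06 ± 0.37.

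The heme peroxidases use hydrogen peroxide. Of 5 on the array, 2 were tested, and Epx and Mpo were among those not above background. Pxdn, peroxidasin of the basement membrane, had log2 ratios of 0.33 and 0.35 (limma, adjusted p = 0.184), and Lpo, lactoperoxidase, 0.04 and 0.12.

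The surroundings of the dual oxidase genes were examined for other genes that differed. The probes of the 4 genes spanned 64.9 kb of chromosome 2 (mm9), and within 200 kb on either side there were 18 probes, of which 9 were tested. Tested probes belonged to Duoxa1, Duox1 and 4 other genes. Shf, an adaptor protein gene just beyond Duox1, had log2 ratios of 0.59 and 0.37. Sord, sorbitol dehydrogenase, on the Duox2 side, had 0.16 and 0.82, and B2m, a subunit of class I MHC, had -0.79 and -0.09 by its most negative probe. Spg11 lay near 0. The Duoxa2 probe, on the other strand, lies at -1.22 kb from Duoxa1 probe 1 and was at background, so no difference could be measured there.

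**Figure D5:**
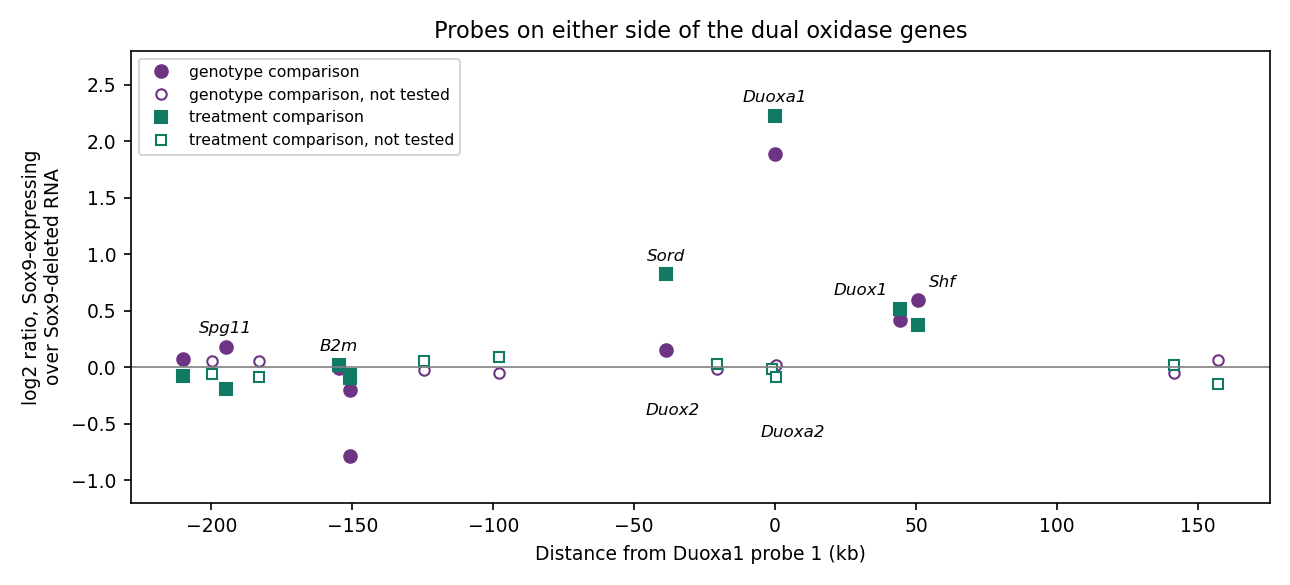
log2 ratio on each array of the 18 probes around the dual oxidase genes against distance (kb) from Duoxa1 probe 1, with open symbols for probes not tested. Duoxa1 probe 1 stands at 1.89 and 2.23, and all other probes lie between -0.79 and 0.82.

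Genes most like Duoxa1 were named by the distance between their log2 ratios and those of Duoxa1 over the 2 arrays. The closest was Sptssb (1110032A04Rik on the array), a subunit of serine palmitoyltransferase, at 1.94 and 2.13 and a distance of 0.110. Next came Krt10, a suprabasal keratin, at 1.78 and 2.14, and Mia (Mia1 on the array), a secreted SH3-domain protein, at 1.82 and 2.04. Vwa1, a matrix protein, had 1.57 and 2.28, and Wfdc18 (Expi on the array), a proteinase inhibitor, 2.22 and 2.04. The measure rests on 2 values per gene.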

How the data were processed

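RNA was measured on 2 Agilent whole mouse arrays of 1 slide, scanned together, each with a Cy5 and a Cy3 RNA, and grouped by the labels' titles, genotypes, treatments and dyes. The source names (SOX9 for Cy5, Ctrl for Cy3) were not used. The authors deposited, from Agilent Feature Extraction 10.5.1.1, mean spot intensity and local background intensity without correction, processed intensity, and the log10 ratio of the processed signals. The authors' value table held values that fit log2 ratios of Cy5 over Cy3, with a slope of 3.14 and 3.16 on the log10 ratios over 11436 spots and column medians of -0.0099 and -0.0034. Its centring steps are not given in the sources used here, and limma is named in the submitters' processing notes.

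The intensities were corrected with normexp (offset 50) and loess within arrays in limma 3.58.1 (R 4.3.3), without control spots (1639 of 45018) and outlier spots (126 and 130), and spots of a probe were averaged. Single-channel brightness was taken after Aquantile normalization. Tests covered the probes whose spots mostly exceeded background, by the software's mark, on both arrays in 1 of the dyes (22731 of 41174). Its mean log2 ratio was set against 0 by a 2-sided moderated test (lmFit, eBayes), and p-values were adjusted by Benjamini-Hochberg across tested probes. With 2 arrays 1 residual degree of freedom remains, and p-values measure the spread between arrays only. Genes with several probes were read from the brightest. Motif counts and figures were made with Python 3.11.15 and matplotlib 3.10.9, and the code was tested on simulated data.

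The followed genes and the lists were chosen with earlier results of these data known. Named were all followed genes, pathway genes past limma's threshold or 2-fold on both arrays, the 3 highest and 3 lowest tested genes of each pathway list, the 5 genes nearest to Duoxa1, and markers beside a result. Ncf1, Ncf4, Rac2, Cybb, Nox3, P4hb, Epx, Mpo and the chromosomal neighbours were added after their values were seen. Some listed genes are not reported here. Alternatives changed background correction, offset, starting signals, normalization, scaling, the filter, the probe of a gene, the arrays kept and the test.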

Additional observations from a re-analysis of the deposited data

How the results depend on the processing

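Duoxa1, Duox1 and Noxo1 were higher in Sox9-expressing RNA in all 11 settings tried for their mean, whereas Nox4 was lower in 9 and Cyba in 10 of 11. Not every setting could move a mean: changes of the filter left all of them as they were. The mean over probes did the same for genes with 1 probe. The number of followed genes at least 2-fold on both arrays fell from 2 to 1 with the arrays scaled to 1 spread, where Noxo1 was lost, and to 1 with the mean over probes, where Noxo1 remained and Duoxa1 was lost, and it rose to 3 under plain subtraction and with the processed signals. The number with the same sign on both arrays went from 5 to 3 under median centring, with which the median over tested probes was 0.38 on the treatment array. Under that setting limma called 1 other pathway gene, Gpx2, in place of 0. Without 1 array, 1 to 2 other pathway genes were 2-fold, Gpx3 joining Gpx2 on the genotype array. Probes at least 2-fold on both arrays numbered 95 (66 higher, 29 lower), and 147 in the authors' table, 148 without background subtraction, 322 under plain subtraction (186 higher, 136 lower), 600 with the processed signals (290 higher, 310 lower) and 122 under median centring (112 higher, 10 lower). With a single array the count was 298 to 382. limma called 2 probes, and 68 in the authors' table, 521 under median centring (490 higher) and 0 with scaled arrays, without background subtraction, with an offset of 10, under plain subtraction or with the processed signals, as did the methods' t-test. Where no cause is named, the cause was not tested. Each log2 ratio already pairs the 2 RNAs of an array, and limma and the methods' paired t-test both rest on it. Beyond that, no paired analysis was possible because the 2 arrays form a single group, with no other group that shares their numbers. Signal over background limits Duox1, and the number of arrays limits every value.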
